A study of Rattus norvegicus with 6 samples.

Results

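The let-7 guide strands are the 9 mature miRNAs of the let-7 family that come from the 5′ arm of their precursors: rno-let-7a-5p, rno-let-7b-5p, rno-let-7c-5p, rno-let-7d-5p, rno-let-7e-5p, rno-let-7f-5p, rno-let-7g-5p, rno-let-7i-5p and rno-miR-98-5p. The rat prefix is left out from here on. They were chosen by family name, although earlier results of these data were known. They are 9 of the 1191 mature IDs in the deposited table, where 699 IDs have a miRBase name and the other 492 are marked as predicted. Mature miRNAs were counted by small RNA sequencing in heart RNA of wild-type (WT) rats, with 3 hearts per group. In the ischemia-reperfusion hearts, the left anterior descending coronary artery was tied for 0.5 h and then reopened for 0.5 h. The normal hearts are labelled as controls with no ligation. The labels used here state no age, sex, strain or sham operation. They tell the hearts of a group apart by a number from 1 to 3 alone, and each p-value therefore reflects how much these 3 libraries per group vary, which may be technical.

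The let-7 miRNAs are among the most conserved small RNAs of animals. A guide strand is loaded into an Argonaute protein and pairs through its seed, bases 2 to 8, with sites in messenger RNAs, which lowers their translation and stability. Known let-7 targets include Lin28, Hmga2 and Ras genes. The RNA-binding protein Lin28 in turn blocks the maturation of let-7 precursors in embryonic and stem cells, and mature let-7 accumulates as tissues, the heart included, differentiate.

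The 9 mature sequences are shown because the shared seed and the few differing bases bear on how well reads of different members can be told apart. All 9 matched RefSeq (rat build GRCr8). Capitals mark the seed.
let-7a-5p: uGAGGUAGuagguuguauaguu
let-7b-5p: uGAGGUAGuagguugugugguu
let-7c-5p: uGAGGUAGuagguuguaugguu
let-7d-5p: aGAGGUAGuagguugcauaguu
let-7e-5p: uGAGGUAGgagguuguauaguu
let-7f-5p: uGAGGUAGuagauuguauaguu
let-7g-5p: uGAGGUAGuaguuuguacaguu
let-7i-5p: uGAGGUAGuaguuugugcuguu
miR-98-5p: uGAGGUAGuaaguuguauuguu

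All 9 strands carry the seed GAGGUAG and are 22 bases long, and 14 of the 22 positions are identical in all of them. Counted from 1 at the 5′ end and with let-7a-5p as the reference, let-7c-5p differs by A19G, let-7e-5p by U9G and let-7f-5p by G12A. Let-7b-5p differs by A17G and A19G, let-7d-5p by U1A and U16C, let-7g-5p by G12U and U18C, and miR-98-5p by G11A and A19U. Let-7i-5p is the most distant, with G12U, A17G, U18C and A19U. Of the 36 pairs of members, 4 differ at 1 position: let-7a with let-7c, let-7a with let-7e, let-7a with let-7f, and let-7b with let-7c. The rule by which the authors assigned reads with mismatches is unknown here, so the split of counts between such neighbours is uncertain.

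The 9 strands come from 12 loci on 6 chromosomes in GRCr8, in 3 cases from a pair of loci with identical mature sequence. On chromosome 17 the let-7a-1 strand lies at chr17:16320145-16320166, the let-7f-1 strand at chr17:16320508-16320529 and the let-7d strand at chr17:16322273-16322294, all on the plus strand and within the span of 1 long non-coding RNA gene. On chromosome 7 the let-7c-2 strand (chr7:118683636-118683657, plus) and the let-7b strand (chr7:118684044-118684065, plus) are 386 bases apart, while the let-7i strand lies apart from other members at chr7:60527935-60527956 on the minus strand, within the span of the protein-coding gene LOC134479799. Huwe1, a ubiquitin ligase gene on the X chromosome, spans the let-7f-2 strand (chrX:24460052-24460073, plus) and the miR-98 strand (chrX:24460663-24460684, plus). Wdr82 and Rpl29 both span the let-7g strand (chr8:115701026-115701047, plus) and Spaca6 the let-7e strand (chr1:67350243-67350264, plus). The remaining loci are let-7a-2 (chr8:50805219-50805240, plus), within the spans of Mir100hgl and Lnc215, and let-7c-1 (chr11:29688127-29688148, plus), within the long non-coding RNA gene LOC103693508. No listed gene spans the let-7b and let-7c-2 strands. Exons and introns of these genes were not used here.

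Library depth went with the groups. All-isoform counts, which sum every read variant assigned to a miRNA, totalled 1376947, 2186243 and 2814802 in ischemia-reperfusion replicates 1 to 3, against 6963312, 8259263 and 8429988 in normal replicates 1 to 3. Predicted entries took 5.46% to 13.6% of these counts after ischemia-reperfusion and 1.09% to 1.29% in normal hearts. Since every ischemia-reperfusion library was shallower than every normal one, depth and group cannot be told apart. The 6 heart muscle markers (such as miR-1-3p and miR-133a-3p) were all detected and summed to 21.9% to 31.02% of counts after ischemia-reperfusion and 22.4% to 40.3% in normal hearts. The other markers were 2 endothelial, 4 smooth muscle and fibroblast, 5 leukocyte, 2 red cell and 1 liver miRNA. Endothelial markers summed to 5.73% to 7.13% after ischemia-reperfusion and 5.45% to 10.6% in normal hearts. Smooth muscle and fibroblast markers summed to 12.3% to 14.1% and 11.9% to 13.3%, and red cell markers to 0.00760% to 0.0426% and 0.00476% to 0.0146%. Of all markers looked at, 3 were called by edgeR, near the 14.8% called over named miRNAs. The muscle miRNA miR-499-5p (log2 fold change -0.70, adjusted p = 0.0307) and the leukocyte miRNA miR-142-5p (-0.63, adjusted p = 0.0248) were lower, and the liver miRNA miR-122-5p was higher (3.26, adjusted p = 0.0202). Normal replicate 1 stood apart with 157689 CPM (counts scaled to a common library size with TMM factors) of miR-1-3p, against 21241 to 33640 CPM in the other 5 libraries.

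No difference in the summed level of the let-7 guide strands was detected between the groups. They took 3.63%, 4.36% and 5.16% of all counts in ischemia-reperfusion replicates 1 to 3, against 4.72%, 4.72% and 4.26% in normal replicates 1 to 3. The ischemia-reperfusion libraries spanned the wider range and included both the lowest and the highest share, so the groups overlapped. The means were 4.38% ± 0.764 after ischemia-reperfusion and 4.57% ± 0.266 in normal hearts (SD, n = 3 each), a difference of -0.185 percentage points (two-sided exact permutation p = 0.8). Counting error is small beside this spread, with 95% Wilson intervals of at most 0.0312 points on either side. Taken of miRBase-named counts alone, the share was 4.80% ± 0.628 after ischemia-reperfusion and 4.62% ± 0.270 in normal hearts (SD, n = 3 each, exact permutation p = 0.9), a difference of the other sign. The difference in the share of all counts also turned positive without ischemia-reperfusion replicate 1 (0.191 points) and with counts of the most abundant (0.219 points) or exact mature sequence (0.556 points), and it was -0.572 points without ischemia-reperfusion replicate 3. In scaled CPM the 9 strands summed to 32364, 39187 and 50156 after ischemia-reperfusion, against 51766, 49709 and 47457 in normal hearts. Those sums overlapped as well, at 0.817 times the normal mean (exact permutation p = 0.3). In bulk RNA, fewer cells of a type and less miRNA per cell cannot be told apart.

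**Figure D1:**
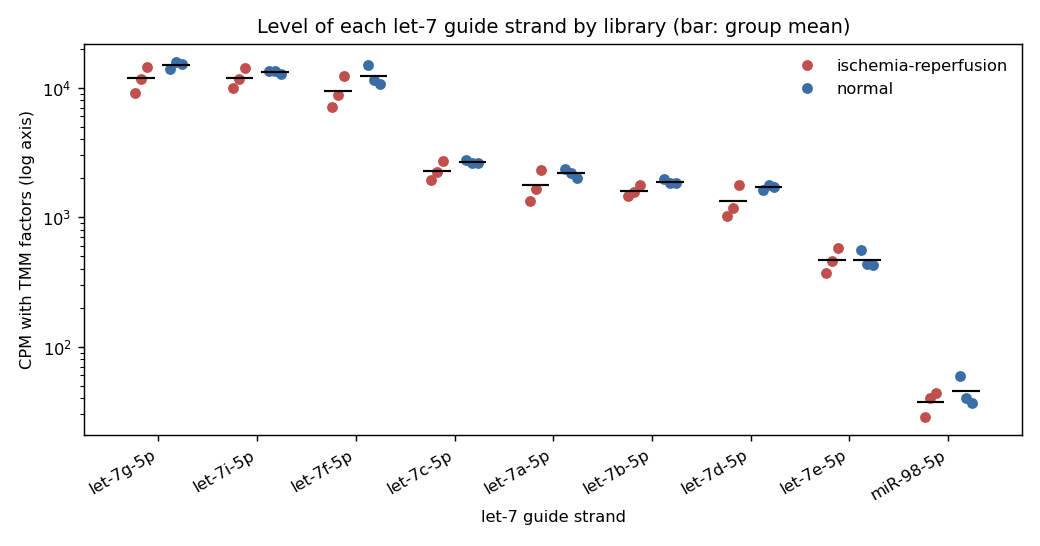
Level of each let-7 guide strand in CPM on a log axis, with 1 point per library and a bar at the group mean, ischemia-reperfusion left of normal. Let-7i-5p, let-7g-5p and let-7f-5p form the top tier between 7047 and 15845 CPM, and miR-98-5p lies lowest at 28.5 to 59.6 CPM. With the TMM factors used here, let-7b-5p is the 1 strand whose groups do not overlap.

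The members differed among themselves far more than between the groups. Let-7i-5p, let-7g-5p and let-7f-5p made up most of the family and ranked between 13 and 19 among miRBase-named miRNAs by counts in every library. Next came let-7c-5p, let-7a-5p, let-7b-5p and let-7d-5p, then let-7e-5p, and last miR-98-5p, which ranked between 142 and 167. The top tier stood clear of the next: let-7f-5p averaged 4.10 times let-7c-5p after ischemia-reperfusion and 4.65 times in normal hearts. Let-7d-5p exceeded let-7e-5p 2.84-fold after ischemia-reperfusion and 3.63-fold in normal hearts, and let-7e-5p exceeded miR-98-5p 12.5-fold after ischemia-reperfusion and 10.4-fold in normal hearts. At each of these 3 gaps the ranges of the neighbouring strands did not overlap in either group. Within the top tier, let-7i-5p and let-7g-5p averaged nearly the same after ischemia-reperfusion, with let-7i-5p above let-7g-5p in 1 of 3 libraries. In normal hearts let-7g-5p was above let-7i-5p in 3 of 3 libraries with ranges that did not overlap, whereas let-7i-5p and let-7f-5p overlapped. In the middle tier, neighbours in the order (let-7c-5p, let-7a-5p, let-7b-5p, let-7d-5p) had overlapping ranges after ischemia-reperfusion and separate ranges in normal hearts. Since all strands have the same length, levels can be compared without correction for length, although ligation and amplification can favour some sequences.

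No let-7 guide strand passed the test between the groups. With edgeR's quasi-likelihood test across all 524 entries that passed the filter on low counts (Benjamini-Hochberg adjusted p under 0.05), 0 of the 9 strands were called. The count was also 0 at an unadjusted p under 0.05, which 25.2% of named miRNAs passed, and 0 with DESeq2 and with limma-voom, which called 16.1% and 12.5% of named miRNAs lower. Over the 305 miRBase-named miRNAs tested, 14.8% were called (13.8% lower and 0.984% higher after ischemia-reperfusion), and over all 524 entries 42.7%. All 9 strands passed the filter. Their log2 fold changes, ischemia-reperfusion over normal, ran between -0.40 and -0.01 with a median of -0.27, beside a median of -0.40 over all named miRNAs tested. All 9 estimates were below 0, as were 260 of the 305 named ones, but 4 of the 9 were above 0 with total counts and 6 with factors from named miRNAs. With upper-quartile factors 6 were called lower, against 47.5% of named miRNAs. The members' median stayed 0.026 to 0.24 above the named median under every alternative run. These runs reuse the same 6 libraries, and the gap was 0.034 with exact mature counts and 0.24 without the filter. The part of abundance and of library depth in this gap was not tested.

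Among the 3 abundant strands, let-7g-5p had 9160.1, 11690.5 and 14558 CPM in ischemia-reperfusion replicates 1 to 3, against 13937, 15845 and 15359 CPM in normal replicates 1 to 3. Ischemia-reperfusion replicates 1 and 2 lay below every normal heart, and replicate 3 lay among them. Its log2 fold change was -0.35 ± 0.19 (SE), the smallest adjusted p of the family at 0.188 (edgeR). Let-7i-5p, known in human cholangiocytes to repress the innate immune receptor TLR4, had 10006, 11561 and 14172 CPM after ischemia-reperfusion, against 13549, 13520.3 and 12771 CPM in normal hearts. Its ischemia-reperfusion libraries held both the lowest and the highest value, and the estimate was -0.16 ± 0.16 (edgeR adjusted p = 0.453). Let-7f-5p had 7047, 8838 and 12262 CPM after ischemia-reperfusion, against 14990.3, 11468 and 10685 CPM in normal hearts. Ischemia-reperfusion replicate 3 lay above normal replicates 2 and 3, and normal replicate 1 lay above all others. This strand had the lowest estimate of the family, -0.40 ± 0.24 (edgeR adjusted p = 0.232).

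In the middle tier, let-7c-5p had 1938, 2214 and 2708 CPM after ischemia-reperfusion, against 2738, 2624 and 2624 CPM in normal hearts (log2 fold change -0.22 ± 0.16, edgeR adjusted p = 0.305). Let-7a-5p had 1333, 1635 and 2299 CPM after ischemia-reperfusion, against 2354, 2175 and 1989 CPM in normal hearts (-0.31 ± 0.22, edgeR adjusted p = 0.298). For both strands ischemia-reperfusion replicate 3 lay inside the normal range and replicates 1 and 2 below it. Let-7b-5p had 1457, 1574 and 1784 CPM after ischemia-reperfusion, against 1955, 1838 and 1845 CPM in normal hearts. It was the 1 of 9 strands with no overlap between the groups in CPM, beside 41.0% of named miRNAs. Its estimate of -0.23 ± 0.14 did not pass the test (edgeR adjusted p = 0.228). Without the TMM factors its groups overlap, and with total counts its log2 fold change was 0.011. Let-7d-5p, the strand with the U1A difference at its first base, had 1027, 1180.4 and 1755 CPM after ischemia-reperfusion, against 1631, 1768 and 1720.5 CPM in normal hearts. Its groups overlapped through ischemia-reperfusion replicate 3 (-0.37 ± 0.22, edgeR adjusted p = 0.221). Without that library let-7d-5p was called lower (log2 fold change -0.50, edgeR adjusted p = 0.0316), beside 10.3% of named miRNAs in the same fit.

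The least abundant strands were let-7e-5p and miR-98-5p. Let-7e-5p had 368, 455 and 573 CPM after ischemia-reperfusion, against 553, 431 and 427 CPM in normal hearts, and both the lowest and the highest library belonged to the ischemia-reperfusion group. Its estimate was the nearest to 0 of the family (-0.01 ± 0.21, edgeR adjusted p = 0.954). MiR-98-5p rested on 44, 97 and 126 counts after ischemia-reperfusion, against 378, 314 and 275 counts in normal hearts. That gave 28.5, 39.9 and 43.5 CPM after ischemia-reperfusion, against 59.6, 40.0 and 36.3 CPM in normal hearts, with overlapping groups (-0.27 ± 0.29, edgeR adjusted p = 0.464). Ischemia-reperfusion replicate 1, the shallowest library, was the lowest of the 6 for all 9 strands. In the authors' deposited table the fold of ischemia-reperfusion over normal ran from 0.882 for let-7f-5p to 1.17 for let-7e-5p, and the lowest false discovery rate was 0.522.

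**Figure D2:**
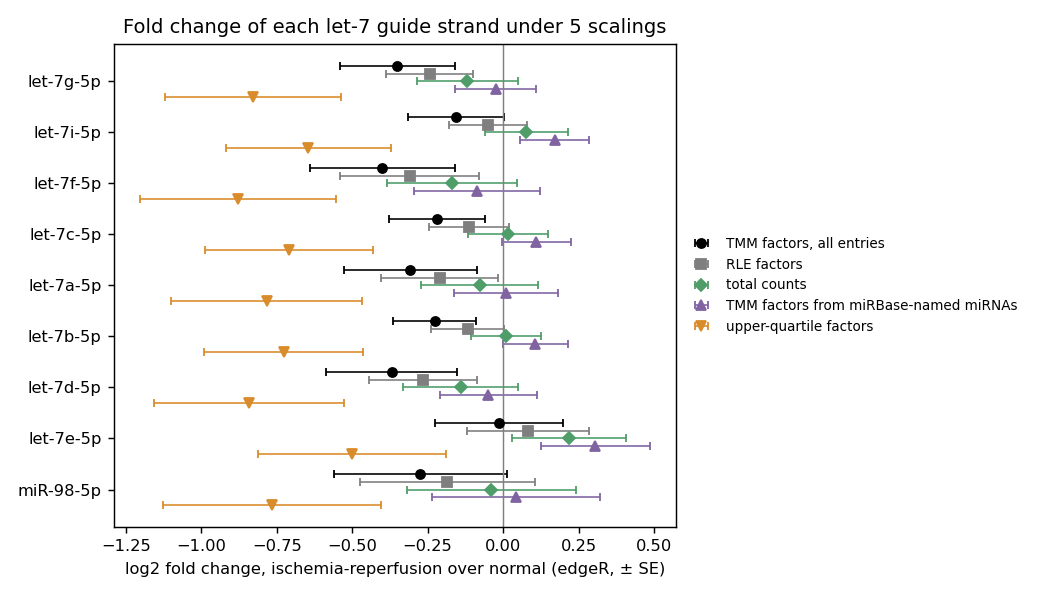
Log2 fold change of each let-7 guide strand, ischemia-reperfusion over normal, with its standard error from edgeR. Scalings are TMM, RLE, total counts, TMM factors from miRBase-named miRNAs and upper-quartile factors. With TMM factors all 9 estimates lie between -0.40 and -0.01, and none passed the test. With total counts 4 of the 9 turned above 0, and with factors from named miRNAs 6 did. With upper-quartile factors the estimates lie between -0.88 and -0.50, and 6 were called lower.

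Composition within the family does not depend on a scaling factor, and there 2 of the 9 strands separated the groups. As a background, the counts of 296 other named miRNAs were taken relative to the same let-7 sum, and 17.9% of them separated the groups (5.74% with the higher values after ischemia-reperfusion). The count over both directions is near that background, although both let-7 strands were higher after ischemia-reperfusion. Member shares add up to a fixed total and the ratios of other miRNAs do not, so neither percentage is a like comparison. Let-7i-5p made up 30.9%, 29.5% and 28.3% of the family's counts in ischemia-reperfusion replicates 1 to 3, against 26.2%, 27.2% and 26.9% in normal replicates 1 to 3. Every ischemia-reperfusion heart lay above every normal heart, by 2.80 percentage points on average (two-sided exact permutation p = 0.1, the smallest that 3 against 3 allows, and 0.45 adjusted over the 9 strands). Let-7e-5p held 1.14%, 1.16% and 1.14% after ischemia-reperfusion, against 1.07%, 0.868% and 0.899% in normal hearts, again with no overlap (exact permutation p = 0.1, adjusted 0.45). Neither share passed the adjusted threshold, which this design cannot reach. With 1 library left out, the difference was 2.12 to 3.45 points for let-7i-5p and 0.163 to 0.264 points for let-7e-5p; leaving out a library cannot make separate ranges overlap.

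The larger shares moved with single libraries. Let-7f-5p held 21.8%, 22.6% and 24.4% after ischemia-reperfusion, against 28.96%, 23.1% and 22.5% in normal hearts, and let-7g-5p held 28.3%, 29.8% and 29.02% after ischemia-reperfusion, against 26.9%, 31.9% and 32.4% in normal hearts. Normal replicate 1 had the highest let-7f-5p and the lowest let-7g-5p share of all 6 libraries, and it is the library with high miR-1-3p; the part of that library's composition in these shares was not tested. Without normal replicate 1, the shares of 5 strands separated the groups (let-7d-5p, let-7e-5p, let-7g-5p, let-7i-5p and miR-98-5p), with a difference of -3.07 percentage points for let-7g-5p. Without ischemia-reperfusion replicate 3, 5 strands also did (let-7a-5p, let-7b-5p, let-7c-5p, let-7e-5p and let-7i-5p). Without normal replicate 3, 3 strands did. When let-7f-5p was left out of the family sum, let-7i-5p alone separated the groups, by 2.70 points, and let-7e-5p overlapped.

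**Figure D3:**
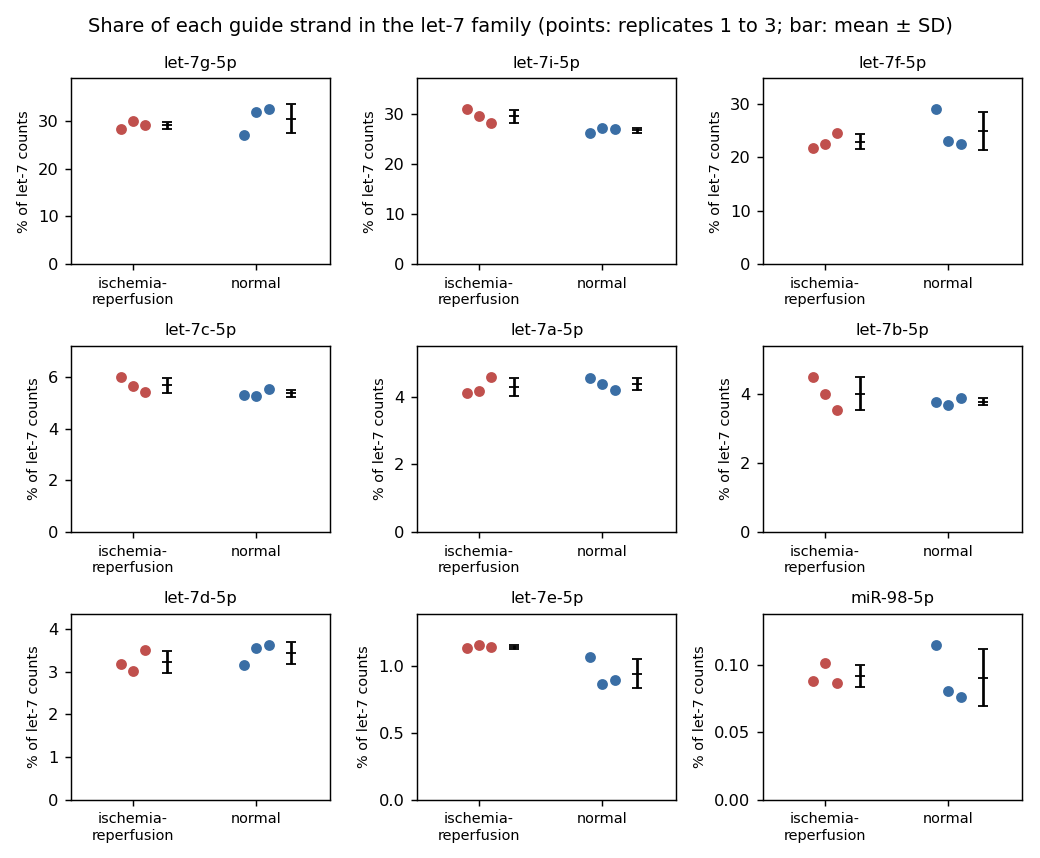
Share of each strand in the summed counts of the 9 let-7 guide strands, in percent, with 1 point per library and a bar at the group mean, ischemia-reperfusion left of normal. Let-7i-5p (28.3% to 30.9% after ischemia-reperfusion, 26.2% to 27.2% in normal hearts) and let-7e-5p do not overlap, while normal replicate 1 has the highest share of let-7f-5p and the lowest of let-7g-5p.

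Reads of a miRNA include variants that start or end at another base or carry added bases. For all 9 strands the most abundant variant was the annotated mature sequence itself, printed above. It made up 39.4% to 62.9% of a strand's counts, beside medians over 271 named miRNAs of 20.5% after ischemia-reperfusion and 19.8% in normal hearts. The exact sequence took a larger share after ischemia-reperfusion, with no overlap between the groups, in 3 of 9 strands, beside 16.6% of named miRNAs in that direction and 24.7% in either. For let-7g-5p the exact share was 49.3%, 48.8% and 50.5% after ischemia-reperfusion, against 47.4%, 46.3% and 46.0% in normal hearts. For let-7f-5p it was 46.7%, 47.4% and 47.2% after ischemia-reperfusion, against 45.4%, 46.1% and 46.0% in normal hearts. These 2 strands differed by 2.95 and 1.25 percentage points, each with an exact permutation p of 0.1 (0.3 adjusted over the 9). MiR-98-5p had 54.5%, 62.9% and 54.8% after ischemia-reperfusion, against 51.6%, 49.0% and 53.1% in normal hearts, but its 95% Wilson half-width reached 14.1 points in the shallowest library, more than the difference of 6.16 points between the means. The other 6 strands overlapped. Without normal replicate 3, let-7e-5p and let-7i-5p separated too, which made 5 strands.

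Each precursor can also release its other arm, the passenger strand, which for let-7 is mostly degraded. Guide strands held at least 97.2% of guide plus passenger counts in every library for let-7b, let-7e, let-7f, let-7g, let-7i and for the sum of let-7a and let-7c. These were summed since let-7a-1-3p and let-7c-2-3p are listed with the same sequence. Let-7d had the largest passenger share of counts, with a guide share of 79.1%, 83.4% and 86.0% after ischemia-reperfusion, against 84.9%, 88.7% and 86.1% in normal hearts. Its groups overlapped (exact permutation p = 0.2, adjusted 0.4). MiR-98 came next, with 86.3%, 92.4% and 92.0% after ischemia-reperfusion, against 96.2%, 94.3% and 88.7% in normal hearts. The miR-98 groups overlapped as well (exact permutation p = 0.4, adjusted 0.533). The guide share was higher after ischemia-reperfusion, without overlap, in 2 of the 8 precursor groups, beside 17.6% of 153 other named precursors in that direction and 24.8% in either. Let-7b had 98.9%, 98.9% and 99.1% after ischemia-reperfusion, against 98.1%, 98.4% and 97.9% in normal hearts. Let-7a with let-7c had 98.3%, 98.6% and 98.7% after ischemia-reperfusion, against 97.98%, 97.9% and 97.2% in normal hearts. Both have an exact permutation p of 0.1, the smallest possible, and 0.4 adjusted over the 8. Without normal replicate 1, 4 of the 8 groups separated, let-7d lower and let-7e higher after ischemia-reperfusion in addition.

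Of the 12 passenger strands listed, 10 passed the filter and 4 were called lower after ischemia-reperfusion with edgeR, beside 13.8% of named miRNAs: let-7b-3p (log2 fold change -1.15, adjusted p = 0.00949), let-7a-1-3p and let-7c-2-3p, which are listed with the same sequence (both -0.87, adjusted p = 0.0105 and 0.0104), and let-7c-1-3p (-2.21, adjusted p = 0.0432). Let-7c-1-3p had 0, 4 and 6 counts after ischemia-reperfusion, against 47, 49 and 43 counts in normal hearts. It passed the filter on low counts through the normal group alone, where it is high, so its call carries no weight of its own. Let-7b-3p had 16.2, 16.9 and 15.9 CPM after ischemia-reperfusion, against 37.5, 30.8 and 40.4 CPM in normal hearts. When named miRNAs were fitted alone, none of the 4 was called (edgeR adjusted p = 0.0725 to 0.108), and in exact mature counts let-7a-1-3p, let-7b-3p and let-7c-2-3p were not (0.0887 to 0.256). Let-7c-1-3p was not called with RLE factors, total counts, factors from named miRNAs or the authors' normalized values either (adjusted p = 0.0525, 0.0682 and 0.0776 with edgeR and 0.0742 with limma). Without ischemia-reperfusion replicate 2, let-7a-1-3p and let-7c-2-3p were not called (edgeR adjusted p = 0.0561 for both), and let-7c-1-3p, at 0 to 7.41 CPM, was not called when any 1 of 5 libraries was left out, all but ischemia-reperfusion replicate 1 (edgeR adjusted p = 0.0502 to 0.128). The marker miR-122-5p had 867, 510 and 79.1 CPM after ischemia-reperfusion, against 82.6, 38.5 and 30.4 CPM in normal hearts. In CPM its groups overlapped, since ischemia-reperfusion replicate 3 lay below normal replicate 1. The liver list (this 1 miRNA) held 0.00814% to 0.0972% of counts after ischemia-reperfusion and 0.00273% to 0.00753% in normal hearts. The 5 leukocyte markers summed to 0.0548% to 0.0610% after ischemia-reperfusion and 0.0540% to 0.0651% in normal hearts. The part of these RNAs, and of the lower miR-499-5p, in the falls of passenger strands and of miR-99b-5p was not tested.

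Several let-7 genes share a primary transcript with miRNAs of the miR-99/100 and miR-125 families, which have other seeds. In GRCr8 the miR-99b-5p strand lies 151 bases from that of let-7e-5p and the miR-125a-5p strand 424 bases from it. The miR-125b-5p strand lies 44439 bases from that of let-7c-1, where in mammals miR-99a is also made, and the miR-100-5p strand lies 6890 bases from that of let-7a-2. Of these 5 partners, miR-99b-5p fell after ischemia-reperfusion and the other 4 did not pass the test. MiR-99b-5p had 1113, 1379 and 1503 CPM after ischemia-reperfusion, against 2165, 1978 and 1967 CPM in normal hearts. Every ischemia-reperfusion heart lay below every normal heart (log2 fold change -0.61 ± 0.16, edgeR adjusted p = 0.0175). The call was lost without ischemia-reperfusion replicate 1, ischemia-reperfusion replicate 2 or normal replicate 2 (edgeR adjusted p = 0.0745, 0.0784 and 0.0516), with total counts (0.0751), with factors from named miRNAs (0.135), with limma on the authors' normalized values (0.0742) and when named miRNAs were fitted alone (0.344).

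The other partners had no overlap in CPM either. In CPM, 5 of 5 partners thus separated the groups, against 1 of 9 let-7 strands and 41.0% of named miRNAs. These counts depend on the TMM factors, which were 1.03 to 1.12 after ischemia-reperfusion and 0.898 to 0.951 in normal hearts. Without the factors, miR-99a-5p, miR-125a-5p, miR-125b-5p and let-7b-5p overlap between the groups. MiR-125a-5p had 863, 1189 and 1327 CPM after ischemia-reperfusion, against 1702, 1916 and 1471 CPM in normal hearts (-0.59 ± 0.20, edgeR adjusted p = 0.0532). MiR-125b-5p had 921, 1275 and 1573 CPM after ischemia-reperfusion, against 1866, 2008 and 1704 CPM in normal hearts (-0.57 ± 0.21, edgeR adjusted p = 0.0734). MiR-100-5p had 5369, 5700 and 6481 CPM after ischemia-reperfusion, against 7439, 7586 and 7661 CPM in normal hearts (-0.37 ± 0.13, edgeR adjusted p = 0.0557). MiR-99a-5p, the most abundant partner, had 55575, 51388 and 59269 CPM after ischemia-reperfusion, against 59316, 100386 and 117910 CPM in normal hearts, and came closest to overlapping (-0.74 ± 0.25, edgeR adjusted p = 0.0532).

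**Figure D4:**
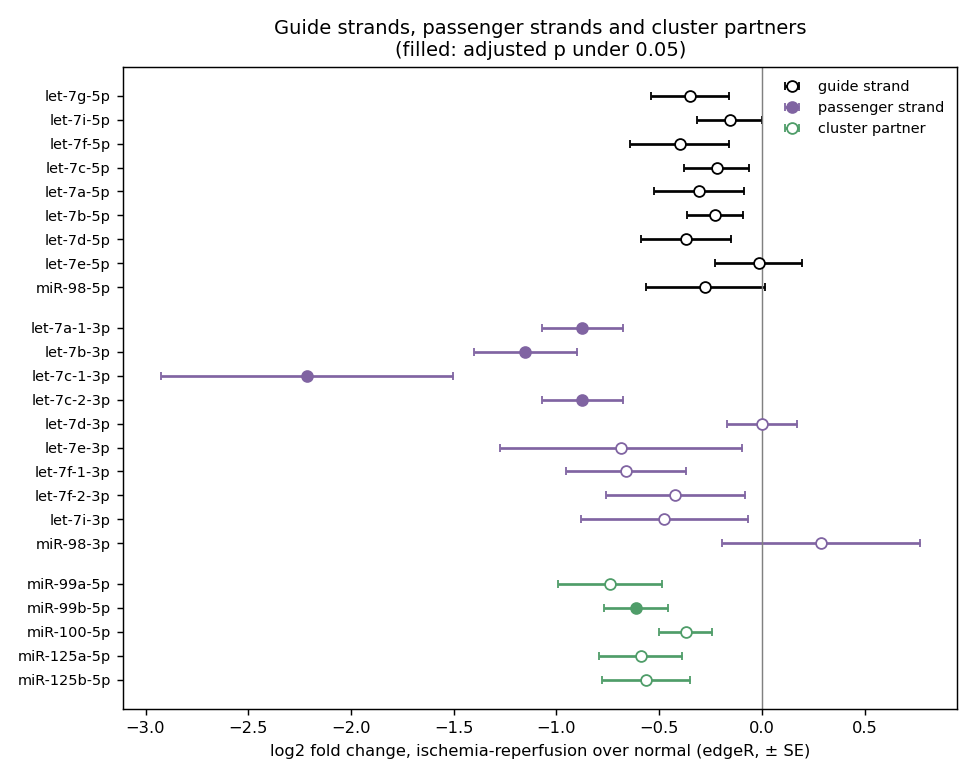
Log2 fold change, ischemia-reperfusion over normal, with its standard error from edgeR, for the let-7 guide strands, their passenger strands and the 5 cluster partners. The 9 guide strands lie between -0.40 and -0.01, the partners between -0.74 and -0.37, and the filled points mark those that passed the test.

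Set against their partners within the same library, 2 let-7 strands lay higher in every ischemia-reperfusion heart than in any normal heart for 3 of 5 ratios; these ratios were added after the partners' lower CPM had been seen and largely restate it. The log2 ratio of let-7e-5p to miR-99b-5p was -1.60, -1.60 and -1.39 in ischemia-reperfusion replicates 1 to 3, against -1.97, -2.20 and -2.20 in normal replicates 1 to 3. That is a difference of 0.59 with no overlap (exact permutation p = 0.1, the smallest possible, 0.167 adjusted over 5 ratios). Let-7e-5p to miR-125a-5p differed by 0.58 and let-7c-5p to miR-125b-5p by 0.36, both without overlap and with the same p. As a background, the ratio to another of 296 named miRNAs lay higher after ischemia-reperfusion, without overlap, for 23% of them with let-7e-5p, 18.2% with let-7c-5p and 9.8% with let-7a-5p. Let-7c-5p to miR-99a-5p overlapped (difference 0.45, exact permutation p = 0.4) but separated without normal replicate 1 (difference 0.76). Let-7a-5p to miR-100-5p overlapped (difference 0.03, exact permutation p = 0.9). In counts of the exact mature sequence, the ratios that separated were let-7e-5p to miR-99b-5p (difference 0.69) and let-7a-5p to miR-100-5p (difference 0.32). The let-7c-5p and let-7a-5p reads come from a pair of loci each, so their ratios mix transcripts. Whether reads of the partners also come from further loci was not examined.

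**Figure D5:**
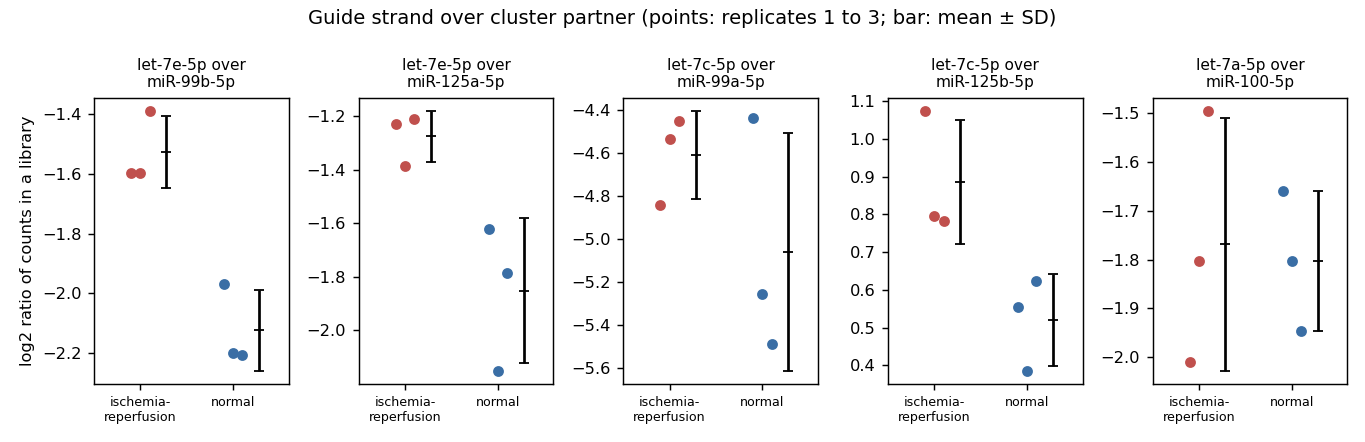
Log2 ratio of a let-7 guide strand to a cluster partner, with 1 point per library and a bar at the group mean, ischemia-reperfusion left of normal. The ratios of let-7e-5p to miR-99b-5p and miR-125a-5p and of let-7c-5p to miR-125b-5p lie higher in all 3 ischemia-reperfusion libraries than in any normal one.

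Outside the family, 4 named miRNAs followed the summed let-7 level most closely over the 6 libraries among 114 with at least 100 CPM. Likeness was measured as the root mean square difference of centred log2 CPM. It was 0.0948 for miR-146b-5p, 0.0985 for miR-27b-3p, 0.103 for miR-103-3p and 0.115 for miR-152-3p, beside a median of 0.264 over the 114 candidates. The let-7 strands themselves lay between 0.0610 for let-7a-5p and 0.200 for miR-98-5p. Each of them is part of the sum it was compared with, so these values cannot be set against those of the other miRNAs. MiR-146b-5p had 324, 333 and 408 CPM after ischemia-reperfusion, against 444, 456 and 418 CPM in normal hearts. The 6 points share library depth and scaling, so the measure is a description.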

How the data were processed

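Per the labels' protocols, Trizol RNA was ligated to adaptors, amplified and size selected for small RNAs. The submitters' processing notes name Novoalign 2.07.11. Genome build, miRBase release, mismatch rule and the role of Novoalign were not given in the sources used. The authors deposited raw tag counts for all isoforms, the exact mature sequence and the most abundant sequence, per the file headers. Blank cells count as 0. No count below 2 is listed. The authors' normalized values are whole numbers, treated as a score. Their deposited comparison holds scores averaged per group, a fold (ratio), a p-value and an FDR.

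All-isoform counts were used, from the precursor row with the highest total per mature ID. Tests used edgeR 4.0.16 in R 4.3.3 (filterByExpr, minimum count 10, TMM factors, robust quasi-likelihood F test, Benjamini-Hochberg adjustment over all entries, threshold 0.05). SE was taken as log2 fold change over root F. Shares and ratios were compared by two-sided exact permutation tests in Python 3.11.15. Scripts were tested on simulated data. Alternatives were DESeq2 1.42.0, limma 3.58.1, other scaling factors, count columns and filters, a replicate block and leaving out each library. Intervals cover counting error only, since the protocol names no molecular identifiers and PCR copies are not independent.

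Members and lists were chosen with earlier results of these data known. Named beside all 9 members are the 5 cluster partners, passenger strands past the test, heart muscle markers and the 4 miRNAs of at least 100 CPM most like the summed family. Sequences are from RefSeq (GRCr8).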

Additional observations from a re-analysis of the deposited data

How the results depend on the processing

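Calls of the 9 guide strands held at 0 in every fit except upper-quartile factors (6 lower) and the fit without ischemia-reperfusion replicate 3 (1 lower), for a range of 0 to 1 over the fits that leave out a library. Their median log2 fold change, -0.27, was -0.77 with upper-quartile factors, 0.043 with factors from named miRNAs, 0.064 with named miRNAs fitted alone, -0.0043 with exact mature counts, 0.0077 with limma on log2 of the authors' normalized values plus 1, and -0.40 to -0.067 with a library left out. Signs turned above 0 as follows. For let-7e-5p the value was 0.081 with RLE factors, 0.22 with total counts, 0.31 with named factors, 0.32 with named miRNAs alone, 0.26 with exact counts, 0.098 with most abundant counts, 0.082 with DESeq2, 0.23 with the authors' values, and -0.15 to 0.21 with a library left out. For let-7i-5p it was 0.077 with total counts, 0.17 with named factors, 0.18 with named miRNAs alone, 0.083 with exact counts, 0.064 with the authors' values, and -0.25 to 0.036 with a library left out. Let-7b-5p came to 0.011, 0.11, 0.12, 0.0083 and 0.011 under the same 5 settings. Let-7c-5p came to 0.016 with total counts, 0.11 with named factors, 0.12 with named miRNAs alone and 0.0077 with the authors' values, and let-7a-5p to 0.010 with named factors and 0.023 with named miRNAs alone. MiR-98-5p came to 0.043 with named factors, 0.064 with named miRNAs alone, 0.11 with exact counts and 0.043 with the authors' values, and miR-125a-5p to 0.043 with exact counts. The cause of these turns was not tested.

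The number of cluster partners called lower, 1, was 5 with upper-quartile factors, 4 without the filter, 3 with most abundant counts and with DESeq2, 2 with exact counts, with rows summed over precursors and with limma-voom, and 0 with total counts, named factors, named miRNAs alone and the authors' values; it was 0 to 2 with a library left out. The difference of the summed share, -0.185 points, was 0.556 with exact counts and -0.572 to 0.191 with a library left out. With a library left out, the count of strands that separated the groups was 2 to 5 within the family, 3 to 5 in the exact (and equally the most abundant) share and 2 to 4 in the guide share, whose lower ends are the counts with all libraries, since a smaller group can lose an overlap but not gain one; with let-7f-5p left out of the family it was 1. Same-numbered libraries did not deviate together (correlations -0.236, 0.0123 and -0.161). With 3 libraries per group, such values cannot settle whether the numbers pair the libraries. With a replicate block 0 of 9 members and 0 of 5 partners were called, and let-7b-3p and let-7c-1-3p were not called either (edgeR adjusted p = 0.0512 and 0.128). Depth limits miR-98-5p most, at 44 counts in the shallowest library.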

Other observations

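Among the predicted entries, 2 begin with the let-7 seed. Their most abundant sequences, with the seed in capitals, are shown because they match the start of let-7f-5p.
predicted entry A: tGAGGTAGtagattgc
predicted entry B: tGAGGTAGtagattgt
Of their 16 bases, entry A shares the leading 15 and entry B all 16 with let-7f-5p, against 11 with the next closest member. Entry A had 2, 2 and 12 counts after ischemia-reperfusion, against 43, 32 and 22 counts in normal hearts (log2 fold change -1.05, edgeR adjusted p = 0.269). Entry B had 11, 26 and 36 counts after ischemia-reperfusion, against 167, 164 and 88 counts in normal hearts (log2 fold change -0.94, edgeR adjusted p = 0.131). In CPM both overlapped between the groups. Added to let-7f-5p, in a comparison chosen after the data were seen, they left 0 of 9 members called. RefSeq places the antisense miRNAs miR-3596a to miR-3596d opposite the let-7a-2, let-7d, let-7e and let-7f-1 strands; the 1 such entry listed, miR-3596c, had 0 counts.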
